A study of Mus musculus with 9 samples.

Results

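Expression of 47 genes of the lysosome was examined in MC38 tumours after knockdown of Gad1. The genes were taken by symbol from a fixed list of lysosomal hydrolases, lysosomal membrane proteins and subunits of the vacuolar proton pump, together with Tfeb, a transcription factor of lysosomal genes. All 47 were found among the 17134 genes with a value in every library, and all 47 were among the 14600 genes abundant enough to test. MC38 is a colon adenocarcinoma cell line from a C57BL/6 mouse. The cells had been infected with lentivirus, selected with puromycin and implanted under the skin of C57BL/6 mice, and tumours were taken at day 20. The cancer cells carried shRNA shA against Gad1, shRNA shB against Gad1, or a non-targeting shRNA (NTC), with 3 libraries of total RNA per group. Gad1 encodes glutamate decarboxylase, which makes GABA. All 3 groups share the lentiviral infection and the selection. Only the implanted cells were given an shRNA, whereas each library was made from tumour tissue, which also holds host cells. The labels do not say whether every tumour came from a different mouse, so the p-values describe only how far these libraries spread.

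The lysosome is an acidic organelle in which proteins, glycans, lipids and nucleic acids are broken down. Its lumen is acidified by the V-ATPase, a rotary pump with a soluble V1 sector that hydrolyses ATP and a membrane-bound V0 sector that carries protons. Several V0 subunits exist as paralogues that differ between cell types, and those of osteoclasts and macrophages allow the pump to serve bone resorption and phagosomes. The lumenal enzymes include cysteine and aspartic proteases (the cathepsins), glycosidases, and enzymes and cofactors of sphingolipid breakdown. Macrophages carry large amounts of these enzymes. Many lysosomal genes have promoters with the palindrome CACGTG in an extended form called the CLEAR element, to which TFEB binds when mTORC1 on the lysosomal surface is inactive.

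The promoters are shown because the CLEAR element is the sequence that many of these genes have in common. RefSeq promoters (GRCm38.p6, 250 bases before to 50 bases after each start) were at hand for 38 of the 47 genes. They were searched on both strands for CACGTG, for the longer TCACGTGA and for the full CLEAR palindrome of 10 bases, which is TCACGTGA with a G before it and a C after it. Each of the 3 is its own reverse complement, and each longer one contains the shorter. CACGTG was found for 13 of the 38 genes (34.2%), against 2187 of 27025 genes with a promoter in the same table (8.09%). TCACGTGA was found for 6 of the 38 (15.8%), against 304 of all genes (1.12%). The palindrome of 10 bases was found for 0 of the 38, against 100 of all genes (0.37%). The 26 bases around each CACGTG are given below for genes of the proton pump, for the lumenal enzymes Ctsa, Lgmn and Gaa, and for the calcium channel gene Mcoln1. Capitals mark CACGTG, and sequences run 5′ to 3′ on the strand of the gene.
Atp6v0b, chr4:117887350-117887375, minus strand: gcgcgggggtCACGTGgggtcggcgc
Atp6v0b, chr4:117887332-117887357, minus strand: gtcggcgcatCACGTGcgccggtcag
Atp6v0d1, chr8:105566052-105566077, minus strand: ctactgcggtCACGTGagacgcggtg
Atp6v1a, chr16:44139375-44139400, minus strand: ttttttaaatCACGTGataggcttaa
Ctsa, chr2:164833751-164833776, plus strand: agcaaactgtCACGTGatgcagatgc
Ctsa, chr2:164833768-164833793, plus strand: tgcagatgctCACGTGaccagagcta
Lgmn, chr12:102439126-102439151, minus strand: gaatgtctgtCACGTGgtccatttta
Gaa, chr11:119267813-119267838, plus strand: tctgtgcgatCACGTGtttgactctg
Mcoln1, chr8:3500438-3500463, plus strand: tcgcgcttgtCACGTGttcagttcag
Mcoln1, chr8:3500464-3500489, plus strand: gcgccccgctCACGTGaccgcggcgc

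Ctsd and Lamp1 are shown with their whole promoter window, since they hold the motif 2 and 4 times in RefSeq GRCm38.p6. Ctsd encodes the aspartic protease cathepsin D, and Lamp1 a major glycoprotein of the lysosomal membrane. Capitals again mark CACGTG.
Ctsd, chr7:142387778-142388077, minus strand: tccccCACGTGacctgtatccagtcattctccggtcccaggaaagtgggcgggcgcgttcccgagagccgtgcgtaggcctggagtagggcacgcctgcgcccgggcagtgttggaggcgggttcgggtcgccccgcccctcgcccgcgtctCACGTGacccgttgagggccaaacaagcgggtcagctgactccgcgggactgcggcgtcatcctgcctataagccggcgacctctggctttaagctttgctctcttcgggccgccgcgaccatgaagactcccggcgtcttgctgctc
Lamp1, chr8:13158911-13159210, plus strand: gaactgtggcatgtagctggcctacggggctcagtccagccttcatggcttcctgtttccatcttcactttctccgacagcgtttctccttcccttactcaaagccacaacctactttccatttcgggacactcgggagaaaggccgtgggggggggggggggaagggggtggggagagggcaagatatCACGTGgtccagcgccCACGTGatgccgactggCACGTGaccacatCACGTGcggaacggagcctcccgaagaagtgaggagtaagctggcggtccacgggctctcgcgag

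The deposited values, called normalized reads here, are the reads of each gene scaled by a factor of its library. The libraries held 18373748 to 24918174 reads. Gad1 read 13.1, 23.4 and 50.0 in shA tumours, 21.8, 42.2 and 23.6 in shB tumours, and 281, 265 and 326 in NTC tumours. Every knockdown library lay below every NTC library, and the exact two-sided permutation p was 0.0119 over 84 assignments, the smallest that 6 against 3 libraries allow. The first replicate of shA and the first of shB stood apart from the other libraries of their groups. Between libraries of one group the chi-square per degree of freedom of the counts was 134 for both pairs with shA replicate 1 and 86.3 and 101 for those with shB replicate 1. NTC replicate 1 gave 21.3 and 26.4 with the other NTC libraries, which gave 7.39 with each other, and the remaining pairs gave 16.5 for shA and 9.25 for shB. Marker sums set the first replicates apart as well. B cell markers summed to 1958 normalized reads in shA replicate 1 and to 59.8 and 85.2 in the other shA libraries. T cell markers summed to 5518 against 2093 and 1950, and endothelial markers to 11085 against 3323 and 3083. Neutrophil markers summed to 2151 against 304 and 222, of which Retnlg alone gave 2030, 66.4 and 130. The neutrophil marker Csf3r was lowest in shA replicate 1, at 33.8 against 151 and 88.5. S100a8 and S100a9 lay there between the values of the other shA libraries. Skeletal muscle markers summed to 8574 in shB replicate 1 and to 84.5 and 1434 in the other shB libraries. Red blood cell markers summed to 61042 in NTC replicate 1 and to 6372 and 3402 in the other NTC libraries. Counts over the 47 genes, over their roles and over marker lists are given with and without the first replicates.

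Of the 47 genes, 18 rose and 0 fell when the average of the shA and shB tumours was set against NTC tumours. A gene was said to rise or fall at a Benjamini-Hochberg adjusted p under 0.05, from limma on log2(value + 0.5), with all 14600 tested genes adjusted together. Over all tested genes, 15.5% rose and 9.49% fell. The median log2 change was 0.30 over the 47 genes and -0.03 over all tested genes. At an unadjusted p under 0.05, 23 of the 47 genes had a higher level and 2 a lower one, against 20.6% and 17.2% of all tested genes. With edgeR no lysosomal gene fell either, against 1276 of all 14600 tested genes, and with DESeq2 1 did, against 1796. In 21 of the 47 genes all 6 knockdown libraries exceeded all 3 NTC libraries, against 16% of all tested genes. The reverse held for 1 gene, Gaa, against 13.6% of all tested genes. Without the first replicate of each group, 33 of the 47 rose and 3 fell, while 23.7% and 20.5% of the 14155 genes then tested did so. Without shB replicate 1, 24 rose and 2 fell, against 20.6% and 17.3% of 14454 genes. With weights for the libraries in limma, 30 rose and 4 fell, against 27.2% and 26.5% of all tested genes.

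By role, most rising genes were lumenal enzymes. Of 12 proteases, 9 rose, with a median log2 change of 1.04 over the 12. Of 7 glycosidases 3 rose, of 6 genes of lipid handling and cofactors 2 rose, and of 5 membrane proteins 1 rose, with medians of 0.22, 0.38 and 0.26. Of the 16 genes of the proton pump 3 rose, with a median of 0.09 and a range from -0.19 to 2.91. These counts stand beside the 15.5% of all tested genes that rose in the same fit. When the first replicates were left out, 10 of 12 proteases rose, as did 5 of 7 glycosidases and 4 of 6 genes of lipid handling and cofactors. So did 4 of 5 membrane proteins and 9 of 16 pump genes, while 23.7% of all genes then tested rose. The glycosidase Gaa, the lipid gene Npc1 and the membrane gene Mcoln1 fell in that fit, as did 20.5% of all genes tested in it. The 6 further pump genes were Atp6v0b, Atp6v0d1, Atp6v1b2, Atp6v1g1, Atp6ap1 and Atp6ap2, and the median of the pump was then 0.22. The counts of the pump and of the membrane proteins moved most between the 2 fits.

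**Figure D1:**
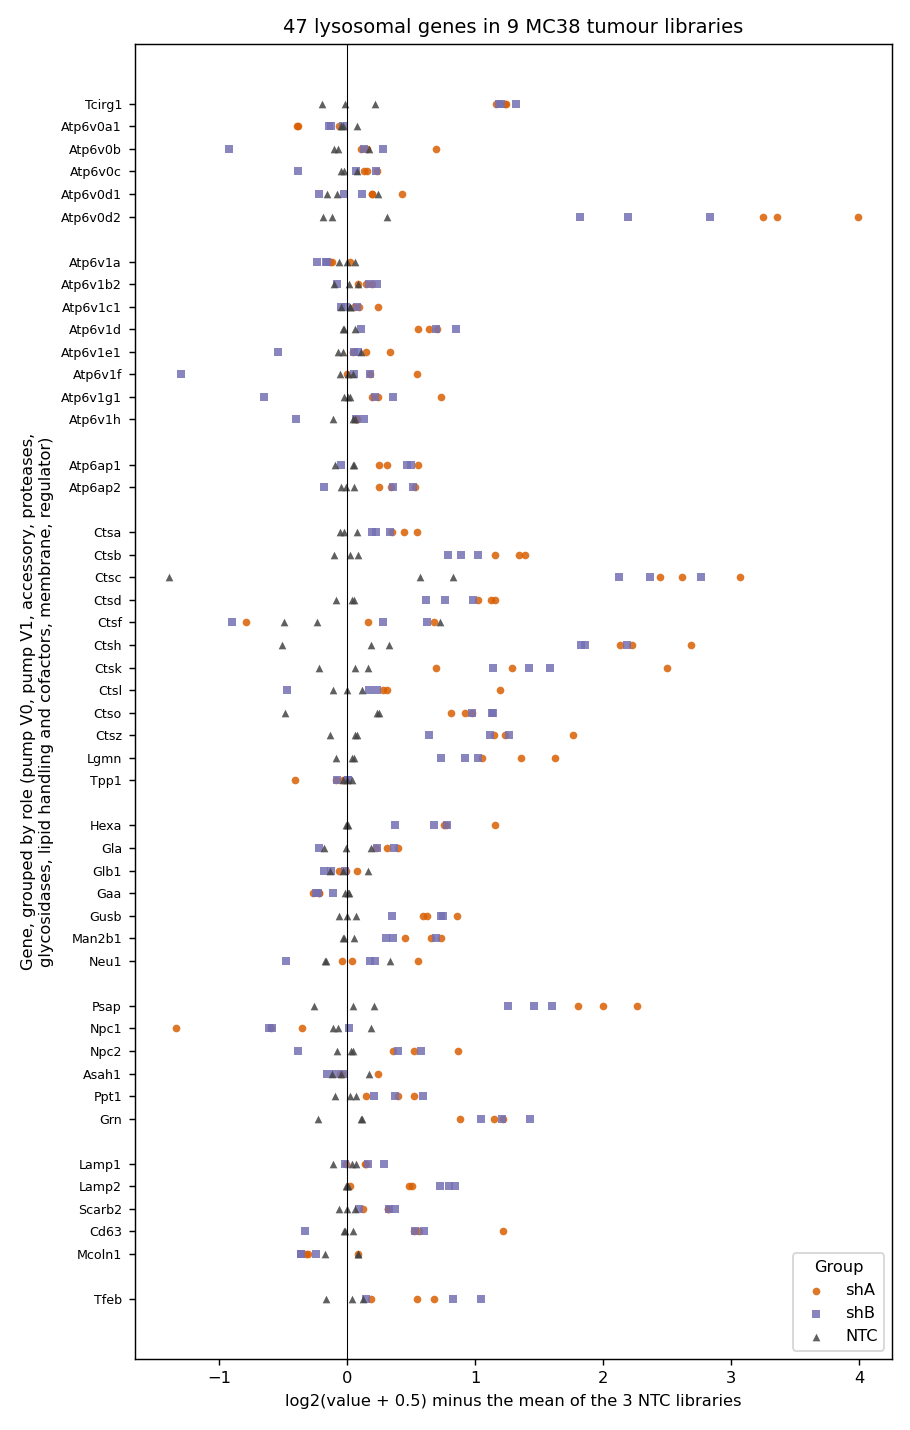
Level of each of the 47 genes in every library, as log2(value + 0.5) minus the mean of the 3 NTC libraries; shA libraries are circles, shB libraries squares and NTC libraries triangles, and genes are grouped by role. Atp6v0d2, Ctsc, Ctsh and Psap lie far to the right in all 6 knockdown libraries, whereas most pump subunits lie around 0.

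Markers of other cell types moved in the same comparison. Of 14 macrophage markers 13 could be tested and 12 rose, with a median log2 change of 2.45. Their summed level was 33552 to 36764 normalized reads in shA tumours, 22067 to 28941 in shB tumours and 2823 to 5986 in NTC tumours. C1qc, a complement gene of tissue macrophages, averaged 4269 ± 862 in shA tumours, 2889 ± 607 in shB tumours and 449 ± 193 in NTC tumours (SD, n = 3 each). Of 6 tested dendritic cell markers 5 rose, of 8 T cell markers 8 rose, of 8 fibroblast markers 6 rose and 1 fell, of 6 tested osteoclast markers 4 rose, and of 4 tested neutrophil markers 2 rose. Of 5 red blood cell markers 4 fell, with a median log2 change of -3.63. No endothelial, skeletal muscle or B cell marker passed, of 6, 6 and 2 tested. At an unadjusted p under 0.05 1 endothelial and 1 muscle marker were higher; with edgeR 1 muscle marker passed, and with DESeq2 2 muscle markers and 1 endothelial marker did. Of 8 epithelial markers, which the cancer cells carry, 2 rose, and their summed level was 42164 to 67474 in shA tumours, 40794 to 65859 in shB tumours and 34958 to 41954 in NTC tumours. With the first replicates left out, 12 macrophage, 5 dendritic cell, 8 T cell, 5 fibroblast, 3 osteoclast, 2 neutrophil, 3 endothelial and 6 epithelial markers rose, and 5 red blood cell, 1 fibroblast and 1 epithelial marker fell. Without NTC replicate 1 alone, 3 dendritic cell, 4 fibroblast and 0 neutrophil markers rose and 0 red blood cell and 0 fibroblast markers fell; at an unadjusted p under 0.05, 2 neutrophil markers were higher and 4 red blood cell markers and 1 fibroblast marker lower. Without shB replicate 1 alone, 5 epithelial markers rose. The part of these cell types in the lysosomal changes was not tested. In RNA from whole tumours, a change in the number of cells of a type and a change in RNA per cell cannot be told apart.

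In the V0 sector of the pump, 1 paralogue of each of 2 subunits rose with all libraries in the fit. Tcirg1 encodes the a3 subunit, the form used by osteoclasts and macrophages. Tcirg1 read 2981, 3132 and 3151 in shA tumours, 3026, 3313 and 3069 in shB tumours, and 1158, 1317 and 1545 in NTC tumours. All knockdown libraries lay above NTC, and the shA and shB values overlapped. The fitted log2 change was 1.22 (SE 0.11), or 2.34-fold, with a limma adjusted p of 0.00025. Atp6v0a1 encodes the widely used a1 form and read 1231, 980 and 984 with shA, 1176, 1251 and 1164 with shB, and 1356, 1240 and 1257 in NTC tumours. The knockdown and NTC values overlapped, and it did not pass the test, at a log2 change of -0.19 (SE 0.11) and a limma adjusted p of 0.233. With library weights it passed as lower (limma adjusted p = 0.0292).

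The d subunit connects the pump's rotor to its stalk, and its d2 form, Atp6v0d2, is known from osteoclasts and macrophages. Atp6v0d2 read 683, 441 and 409 in shA tumours, 306, 196 and 151 in shB tumours, and 37.2, 39.1 and 52.8 in NTC tumours. The lowest knockdown library stood well above the highest NTC library. Its log2 change was 2.91 (SE 0.27), or 7.50-fold, with a limma adjusted p of 0.000277, and it had the largest change of the 47 genes. The common d1 form, Atp6v0d1, read 1359, 1154 and 1152 with shA, 863, 992 and 1091 with shB, and 1188, 954 and 902 in NTC tumours. Its groups overlapped, and its log2 change was 0.12 (SE 0.13; limma adjusted p = 0.553). It passed as higher without the first replicate of each group (log2 change 0.24, limma adjusted p = 0.046) and with library weights (log2 change 0.19, limma adjusted p = 0.0451).

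The balance within each pair was compared per length of exon. Tcirg1 per kilobase was 2.96, 3.91 and 3.91 times Atp6v0a1 in shA tumours, 3.14, 3.24 and 3.22 times in shB tumours, and 1.04, 1.30 and 1.5 times in NTC tumours. The a3 form led by a wide margin in the knockdown libraries and stood near parity in NTC replicate 1. Atp6v0d2 per kilobase was 0.322, 0.245 and 0.228 of Atp6v0d1 in shA tumours, 0.228, 0.127 and 0.0887 in shB tumours, and 0.0201, 0.0263 and 0.0375 in NTC tumours. The d2 form stayed below d1 in every library. For either ratio the exact two-sided permutation p for knockdown against NTC was 0.0119, the smallest that 84 assignments allow. The pairs were chosen with the rises of Tcirg1 and Atp6v0d2 known, so this p adds no separate support to them. Between shA and shB the exact permutation p was 0.4 for the first ratio and 0.2 for the second, where 0.1 is the smallest possible with 20 assignments.

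**Figure D2:**
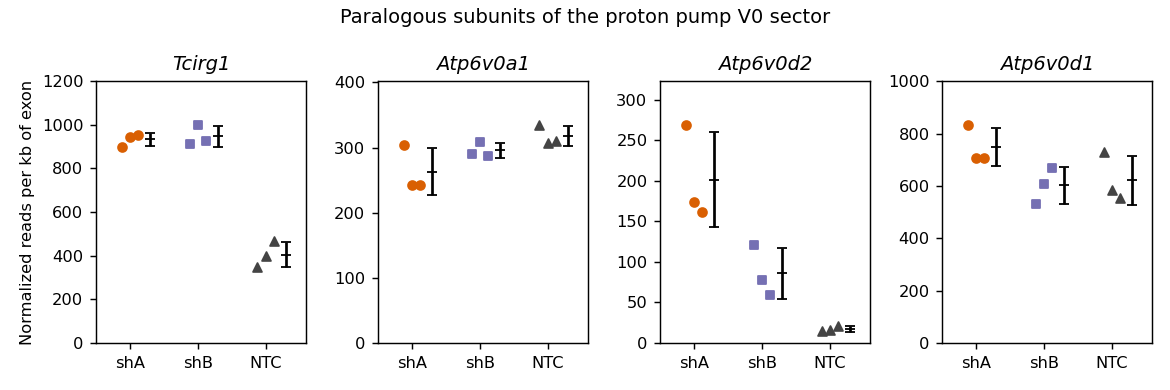
Normalized reads per kilobase of exon (each panel has its own axis from 0) for the 2 forms of the a subunit and the 2 forms of the d subunit in each library, with mean and SD beside the points (n = 3 per group). Tcirg1 and Atp6v0d2 were higher in all 6 knockdown libraries than in NTC, while the knockdown and NTC points of Atp6v0a1 and Atp6v0d1 overlap.

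The other V0 genes, Atp6v0b and Atp6v0c, which encode proton-carrying rotor subunits, both had a log2 change of 0.07 and did not pass. In Atp6v0b, shB replicate 1 read 1290 normalized reads, against 2678 and 2977 in the other shB libraries. Without the first replicate of each group Atp6v0b rose by 0.25 (limma adjusted p = 0.0206). Of the 8 V1 genes, 1 rose. Atp6v1d, a subunit of the central stalk, read 2001, 2127 and 2221 with shA, 1470, 2211 and 2457 with shB, and 1335, 1342 and 1421 in NTC tumours. All knockdown libraries were above NTC, with shB replicate 1 nearest to it. The log2 change was 0.59 (SE 0.15), or 1.51-fold, with a limma adjusted p of 0.0191. The call was lost without any 1 of the NTC replicates, at limma adjusted p of 0.0773 without replicate 1, 0.0705 without replicate 2 and 0.0553 without replicate 3.

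Atp6v1b2 encodes the B subunit, which forms the ATP-hydrolysing ring with the A subunit from Atp6v1a. Atp6v1b2 read 5389, 5237 and 5009 in shA tumours, 4460, 5529 and 5302 in shB tumours, and 5003, 4767 and 4400 in NTC tumours. Atp6v1a read 2290, 2547 and 2309 with shA, 2138, 2243 and 2256 with shB, and 2511, 2410 and 2621 in NTC tumours. In both genes knockdown and NTC libraries overlapped, and the log2 changes were 0.12 (SE 0.10) for Atp6v1b2 and -0.13 (SE 0.09) for Atp6v1a, with limma adjusted p of 0.396 and 0.298. Atp6v1b2 rose by 0.20 without the first replicate of each group (limma adjusted p = 0.0383). Atp6v1g1, a subunit of the peripheral stalk, read 3930, 2698 and 2797 with shA, 1503, 2744 and 3033 with shB, and 2316, 2399 and 2367 in NTC tumours. It did not pass (log2 change 0.18, SE 0.21, limma adjusted p = 0.568), and its highest and lowest values were the first replicates of shA and shB. Without the first replicate of each group it rose by 0.24 (limma adjusted p = 0.0242). Atp6v1c1, Atp6v1e1, Atp6v1f and Atp6v1h had log2 changes of 0.07, 0.02, -0.06 and 0.00 and did not pass either.

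Both accessory genes had positive changes that missed the threshold. Atp6ap1, an assembly factor of the pump, read 4061, 3296 and 3437 with shA, 2682, 3923 and 3829 with shB, and 2867, 2852 and 2600 in NTC tumours. Atp6ap2, the (pro)renin receptor and a partner of the V0 sector, read 2298, 1887 and 2014 with shA, 1398, 2035 and 2266 with shB, and 1652, 1577 and 1537 in NTC tumours. In each of them 1 knockdown library, shB replicate 1, fell within or below the NTC values and the other 5 lay above. The limma adjusted p was 0.101 for Atp6ap1 (log2 change 0.34, SE 0.14) and 0.172 for Atp6ap2 (log2 change 0.30, SE 0.15). Without shB replicate 1 both rose, by 0.43 and 0.41 on the log2 scale, with limma adjusted p of 0.00692 and 0.00908, as they did without the first replicate of each group (limma adjusted p = 0.00195 and 0.00395).

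Among the proteases, the steepest rises were those of 2 cysteine cathepsins with exopeptidase activity. Ctsc (cathepsin C) encodes the dipeptidyl peptidase that activates granule serine proteases of leukocytes. It read 2285, 3528 and 2580 in shA tumours, 2865, 1832 and 2166 in shB tumours, and 160, 623 and 745 in NTC tumours. No knockdown library was near the NTC range, and NTC replicate 1 was far below the other NTC libraries. With all libraries the log2 change was 2.56 (SE 0.42), or 5.91-fold, with a limma adjusted p of 0.00233. Without NTC replicate 1 the log2 change was 1.87, or 3.65-fold, with a limma adjusted p of 0.00112. Ctsh (cathepsin H), an aminopeptidase, read 1999, 1360 and 1453 with shA, 1101, 1125 and 1416 with shB, and 217, 388 and 354 in NTC tumours. All knockdown values lay far above NTC, and those of shA and shB overlapped, with a log2 change of 2.15 (SE 0.21), or 4.44-fold, and a limma adjusted p of 0.000307.

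Ctsk (cathepsin K), the collagen-degrading protease of osteoclasts, read 389, 167 and 111 with shA, 151, 184 and 206 with shB, and 76.6, 71.3 and 58.5 in NTC tumours. All knockdown values exceeded NTC, but shA replicate 1 stood far above the other shA libraries. The log2 change was 1.44 (SE 0.35), or 2.71-fold (limma adjusted p = 0.0151). Without NTC replicate 3 the limma adjusted p was 0.0651. Osteoclast markers beside it summed to 575 to 1443 normalized reads in shA tumours, 538 to 825 in shB tumours and 353 to 442 in NTC tumours. Of that list, Dcstamp, needed for osteoclast fusion, was at 0 in NTC replicate 1, and Calcr and Oscar were not analysed here. Fibroblast markers summed to 14047 to 26541 with shA, 15844 to 35303 with shB and 7884 to 12741 in NTC tumours. The part of either cell type in the change of Ctsk was not tested.

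Ctsb, Ctsd and Lgmn, all endopeptidases, rose by similar amounts. Ctsb (cathepsin B) read 17492, 16977 and 14865 in shA tumours, 13612, 11516 and 12374 in shB tumours, and 6229, 7080 and 6783 in NTC tumours. Its groups were separate, with shA above shB, and its log2 change was 1.10 (SE 0.11; limma adjusted p = 0.000325). Ctsd, whose promoter is printed above, read 11265, 10244 and 11002 with shA, 7755, 8604 and 9994 with shB, and 5246, 5178 and 4750 in NTC tumours. The order of the groups was the same, and the log2 change was 0.94 (SE 0.11; limma adjusted p = 0.000544). Lgmn (legumain), the endopeptidase that processes cathepsins, read 4898, 4063 and 3295 with shA, 3004, 2632 and 3229 with shB, and 1490, 1632 and 1644 in NTC tumours. All knockdown libraries were above NTC, at a log2 change of 1.12 (SE 0.13; limma adjusted p = 0.000611).

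Ctsz (cathepsin X) rose by 1.19 on the log2 scale (SE 0.17; limma adjusted p = 0.00134), with values of 4264 to 9298 in knockdown tumours and 2495 to 2898 in NTC tumours. Ctso (cathepsin O) rose by 0.99 (SE 0.18; limma adjusted p = 0.00392), and Ctsa, the carboxypeptidase that protects beta-galactosidase and neuraminidase, by 0.35 (SE 0.09; limma adjusted p = 0.0192). The call for Ctsa was lost without NTC replicate 2 or 3, at limma adjusted p of 0.0945 and 0.0863. Ctsl, Ctsf and Tpp1 did not pass. Without the first replicate of each group Ctsl rose by 0.31 (limma adjusted p = 0.00733). Tpp1, a tripeptidyl peptidase, read 1603, 2082 and 2006 with shA, 2139, 2138 and 2011 with shB, and 2182, 2083 and 2124 in NTC tumours, with overlapping groups and a log2 change of -0.10 (SE 0.10). Ctsl (cathepsin L) read 5731 in shA replicate 1 and 1815 in shB replicate 1, while the other 7 libraries lay between 2323 and 3122. In the GENCODE M21 annotation the exons of 11 of the 47 genes overlap those of another gene, by 31.5% of exon bases for Ctsd, 28.2% for Ctsl, 16.3% for Ctsb and at most 13.5% for any one partner of the others. No label or header says how reads there were assigned, and these values carry that uncertainty.

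Among the glycosidases, Hexa, Gusb and Man2b1 rose and Gla, Glb1, Neu1 and Gaa did not pass. Hexa, the alpha chain of beta-hexosaminidase, which cuts GM2 ganglioside, read 4280, 3242 and 3284 in shA tumours, 2481, 3078 and 3292 in shB tumours, and 1921, 1910 and 1927 in NTC tumours. Its NTC libraries were nearly equal and all below the knockdown libraries, and the log2 change was 0.75 (SE 0.13), or 1.69-fold, with a limma adjusted p of 0.00255. Gusb (beta-glucuronidase) read 2616, 2177 and 2229 with shA, 1842, 2425 and 2396 with shB, and 1381, 1515 and 1439 in NTC tumours. Man2b1, the lysosomal alpha-mannosidase, read 5538, 5243 and 4555 with shA, 5375, 4097 and 4266 with shB, and 3258, 3447 and 3279 in NTC tumours. In both genes every knockdown library was above NTC and the shA and shB values overlapped, and their log2 changes were 0.65 (SE 0.12) and 0.53 (SE 0.11), with limma adjusted p of 0.00382 and 0.00831.

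Gaa, the acid alpha-glucosidase that degrades glycogen, lay in the other direction. It read 4390, 4247 and 4390 in shA tumours, 4366, 4311 and 4732 in shB tumours, and 5038, 5124 and 5147 in NTC tumours. Every knockdown library was below every NTC library, though by a small margin. Its log2 change of -0.21 (SE 0.08) missed the threshold in limma, with an adjusted p of 0.0881. It passed as lower with DESeq2 (adjusted p = 0.0169) and in limma without shB replicate 1 (adjusted p = 0.0405).

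Of the genes of lipid handling, Psap had by far the highest level. It encodes prosaposin, the precursor of the saposins that present sphingolipids to their hydrolases. Psap read 48681, 40422 and 35385 in shA tumours, 30745, 24146 and 27838 in shB tumours, and 8465, 10438 and 11730 in NTC tumours. The 3 groups did not overlap, with shA above shB and shB above NTC. The log2 change was 1.73 (SE 0.15), or 3.32-fold, with a limma adjusted p of 0.00025. Per kilobase of exon Psap averaged 15123 normalized reads in shA tumours, 10050 in shB tumours and 3721 in NTC tumours. Grn encodes progranulin, a partner of prosaposin in the lysosome, and read 9274, 11152 and 11700 with shA, 10436, 11643 and 13606 with shB, and 4311, 5434 and 5474 in NTC tumours. It was higher in every knockdown library, at a log2 change of 1.15 (SE 0.13), or 2.23-fold (limma adjusted p = 0.000579).

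The cholesterol exporters Npc1 and Npc2 had changes of opposite sign, and neither passed. Npc1, the membrane protein, read 719, 1424 and 1204 with shA, 1836, 1210 and 1191 with shB, and 2075, 1681 and 1728 in NTC tumours. Only shB replicate 1 reached the NTC range, and the log2 change was -0.58 (SE 0.22; limma adjusted p = 0.086). Npc2, the lumenal carrier, read 9572, 6739 and 7572 with shA, 4027, 6928 and 7833 with shB, and 5383, 5417 and 4991 in NTC tumours. Again shB replicate 1 alone broke the separation, and the log2 change was 0.39 (SE 0.20; limma adjusted p = 0.188). Without shB replicate 1, Npc1 fell by 0.68 and Npc2 rose by 0.53 on the log2 scale, with limma adjusted p of 0.0295 and 0.0089. Npc1 also fell without shA replicate 2, at a log2 change of -0.68 (limma adjusted p = 0.0463). Ppt1, a depalmitoylating enzyme, had a log2 change of 0.37 (SE 0.13; limma adjusted p = 0.0557) with all knockdown libraries above NTC. Ppt1 passed as higher in 7 of 22 alternatives, among them edgeR (adjusted p = 0.046), DESeq2 (adjusted p = 0.0209) and limma without shA replicate 1 or shB replicate 1 (adjusted p = 0.0261 and 0.0455). Asah1, acid ceramidase, had a log2 change of -0.02 (SE 0.11).

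Of the membrane proteins only Lamp2 passed. Lamp2, a structural glycoprotein with a role in chaperone-mediated autophagy, read 4718, 6609 and 6516 in shA tumours, 8349, 7711 and 8078 in shB tumours, and 4648, 4631 and 4684 in NTC tumours. shA replicate 1 was just above NTC and the shB libraries were the highest. On average the log2 change was 0.56 (SE 0.12), or 1.48-fold, with a limma adjusted p of 0.00811. Its relative Lamp1 had a log2 change of 0.12 (SE 0.11) and overlapping groups, at 11047 to 13628 in knockdown tumours and 10357 to 11761 in NTC tumours. Scarb2, the receptor that carries glucocerebrosidase to lysosomes, read 2358, 2690 and 2694 with shA, 2805, 2304 and 2707 with shB, and 2253, 2164 and 2073 in NTC tumours. Its knockdown libraries were all above NTC, but with a log2 change of 0.26 (SE 0.10) the limma adjusted p was 0.0904. It passed with DESeq2 (adjusted p = 0.0415), and both Scarb2 and Lamp1 passed as higher in limma without the first replicate of each group (adjusted p = 0.0195 and 0.0365).

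Cd63, a tetraspanin of lysosomes and exosomes, read 10052, 6212 and 6378 with shA, 3441, 6232 and 6548 with shB, and 4444, 4246 and 4262 in NTC tumours. It was above NTC in 5 of 6 knockdown libraries, with a log2 change of 0.52 (SE 0.22; limma adjusted p = 0.117), and it rose without shB replicate 1 (log2 change 0.67, limma adjusted p = 0.0105). Mcoln1, the calcium channel whose opening activates TFEB, read 1814, 1387 and 1372 with shA, 1333, 1336 and 1446 with shB, and 1816, 1524 and 1819 in NTC tumours. Here 5 of 6 knockdown libraries were below NTC, and the log2 change was -0.25 (SE 0.12; limma adjusted p = 0.16). It passed as lower without shA replicate 1 (log2 change -0.32, limma adjusted p = 0.0439).

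Tfeb itself read 852, 661 and 931 in shA tumours, 643, 1035 and 1200 in shB tumours, and 598, 634 and 520 in NTC tumours. All knockdown libraries were above NTC, some by little. The log2 change was 0.57 (SE 0.20), or 1.49-fold, and missed the threshold at a limma adjusted p of 0.0641. Without shB replicate 1 or shA replicate 2 it passed, with limma adjusted p of 0.00545 and 0.0496, and with DESeq2 the adjusted p was 0.0224. Activity of the TFEB protein was not measured. Of the 15 genes with a RefSeq promoter that rose with all libraries in the fit, 3 hold CACGTG, namely Ctsa, Ctsd and Lgmn. Of the 23 genes with a promoter that did not pass there, 10 hold it. Lamp1, with 4 copies, is among those 10, and Psap and Tcirg1, which rose, have none in the windows searched. Of the 10, Atp6v0b, Atp6v0d1, Ctsl, Gla and Lamp1 rose once the first replicates were dropped, and Gaa and Mcoln1 fell. Ppt1, Tfeb, Scarb2, Atp6ap1, Atp6ap2, Cd63, Npc2 and Neu1, whose promoters lack CACGTG, also rose in that fit. A link between the motif and these changes was not tested.

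With each shRNA alone, 17 of the 47 genes rose with shA and 16 with shB, and 0 fell with either. Over all tested genes 11.4% rose and 5.59% fell with shA, and 13.4% rose and 7.02% fell with shB. At an unadjusted p under 0.05, 23 were higher and 2 lower with shA, against 18.1% and 15.5% of all tested genes. With shB 21 were higher and 1 lower at that threshold, against 19.2% and 14.1%. With DESeq2, 2 fell with shA and 0 with shB, against 1339 and 1411 of all 14600 tested genes. With edgeR 0 fell with either, against 714 of all tested genes with shA and 906 with shB. The 2 comparisons share the NTC libraries. Rising with each were 15 genes, against 9.64% of all tested genes, namely Tcirg1, Atp6v0d2, Ctsb, Ctsc, Ctsd, Ctsh, Ctsk, Ctso, Ctsz, Lgmn, Hexa, Gusb, Man2b1, Psap and Grn. Atp6v1d and Ctsa passed with shA, and Lamp2 with shB. Of the 15, 11 passed with each shRNA under every alternative run, whereas Ctsk, Hexa, Gusb and Man2b1 lost a call in some.

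When shA was set against shB directly, 0 of the 47 genes passed in limma, in edgeR or in DESeq2. Of all 14600 tested genes 0 passed in limma or edgeR, while in DESeq2 18 were higher in shA and 5 lower. With library weights in limma 18 were higher and 8 lower. Without the first replicate of each group, 11 were higher and 2 lower, of 14155 genes. The count stayed at 0 of the 47 genes in every alternative. At an unadjusted p under 0.05, 6 lysosomal genes were higher in shA tumours and 1 was lower, against 3.32% and 3.6% of all tested genes. Atp6v0d2 was higher in shA by 1.25 on the log2 scale (SE 0.31), Psap by 0.58 (SE 0.18), Lgmn by 0.45 (SE 0.15), Ctsb by 0.40 (SE 0.12) and Ctsd by 0.31 (SE 0.12). Ctsl was higher by 0.62 (SE 0.26), with shA replicate 1 far above and shB replicate 1 below the other libraries. Lamp2 was lower in shA, with a log2 difference of -0.45 (SE 0.14). The limma adjusted p was 0.68 for each of these 7. Of the 18 genes that rose, 14 had the larger fitted change with shA.

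**Figure D3:**
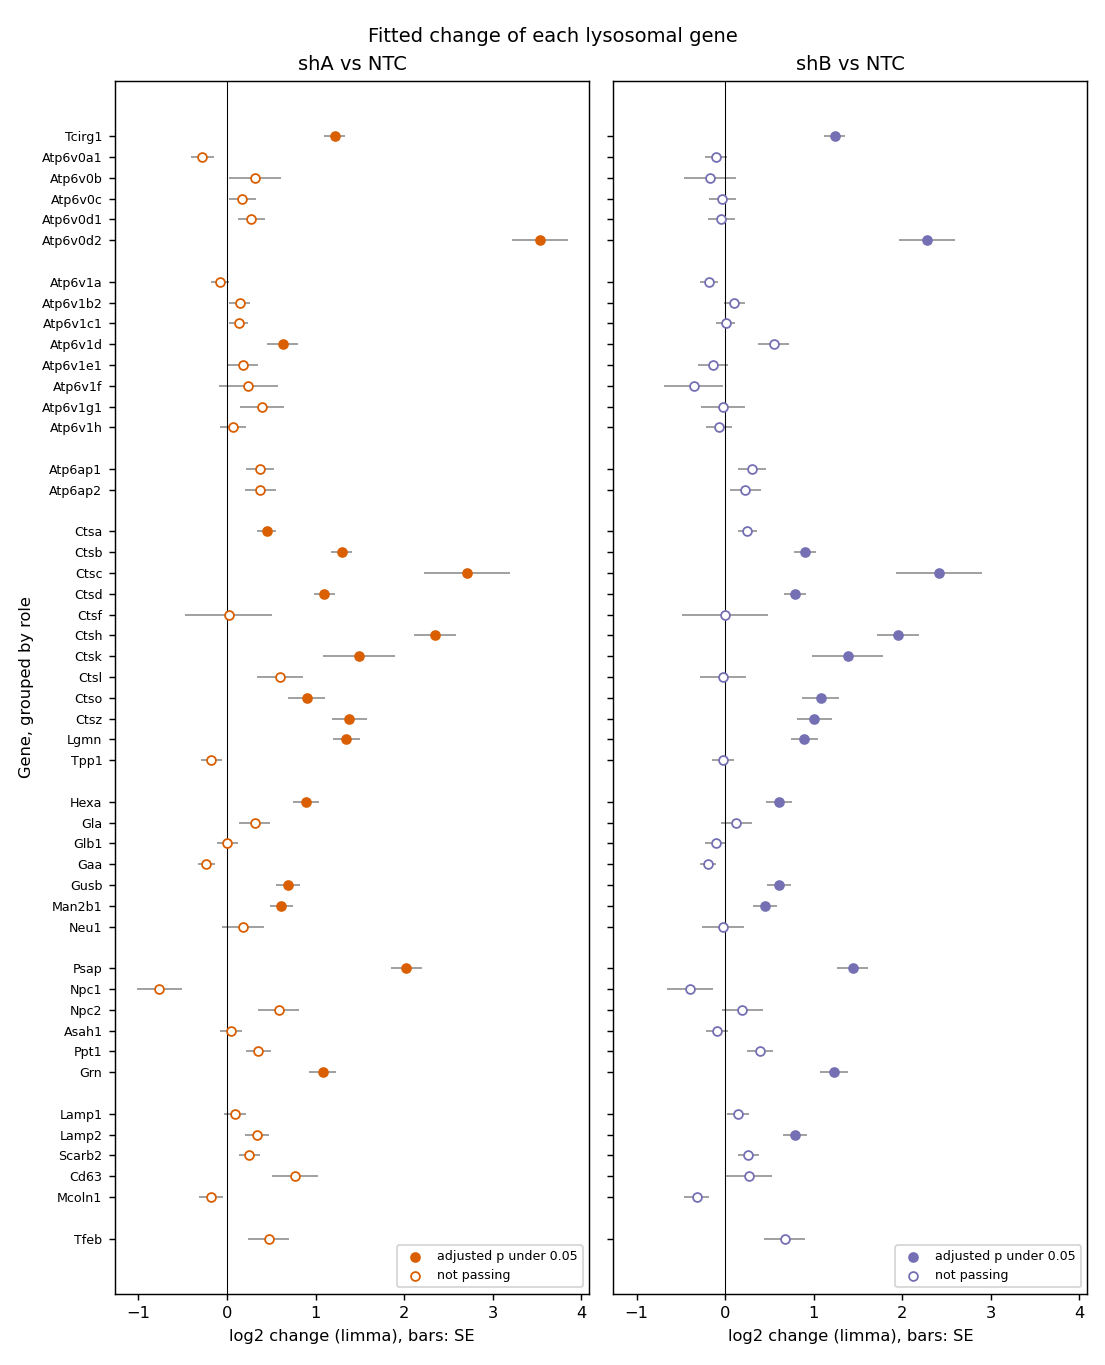
Fitted log2 change of each gene against NTC with shA (left) and shB (right), with bars for the SE; filled points have a limma adjusted p under 0.05 and open points do not. The 2 panels share the NTC libraries, and Atp6v0d2 moved most with shA (3.53) while Ctsc did so with shB (2.42); without NTC replicate 1 the log2 change with shB was 1.72 for Ctsc and 2.19 for Atp6v0d2.

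The share of all reads that fell on the 47 genes was 0.981% ± 0.0176 in shA tumours, 0.883% ± 0.0307 in shB tumours and 0.610% ± 0.0121 in NTC tumours (SD, n = 3 each). The proteases held 0.256% ± 0.0102, 0.215% ± 0.00799 and 0.127% ± 0.00382 of reads in shA, shB and NTC tumours. The genes of lipid handling and cofactors, led by Psap, held 0.308% ± 0.0112 with shA, 0.255% ± 0.0180 with shB and 0.130% ± 0.0120 in NTC tumours. In both groups of genes every knockdown library was above every NTC library. The proton pump held 0.185% ± 0.00345 with shA, 0.173% ± 0.0251 with shB and 0.157% ± 0.00210 in NTC tumours, and shB replicate 1, at 0.144%, was below all NTC libraries.

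**Figure D4:**
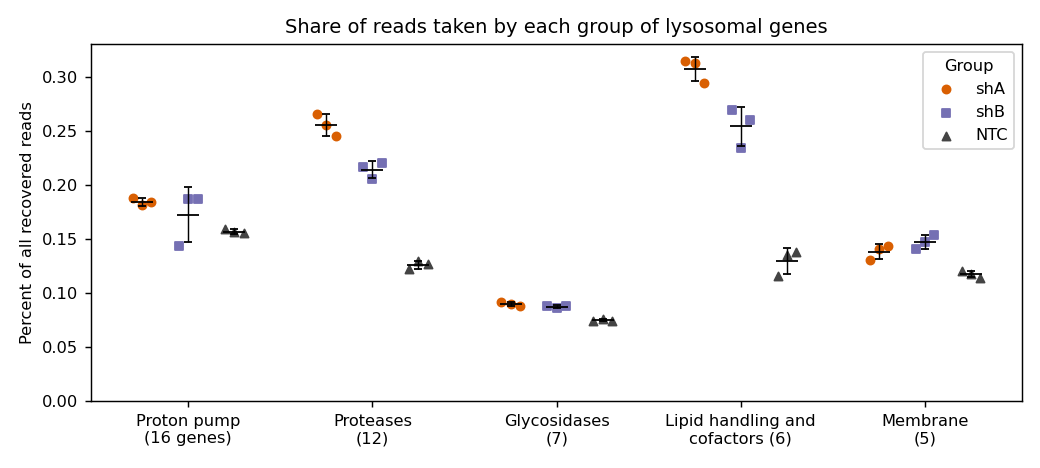
Percentage of all reads taken by each role group in every library, with mean and SD (n = 3 per group; y axis from 0). Proteases and the genes of lipid handling and cofactors set the knockdown tumours apart from NTC most clearly, and the pump share of shB replicate 1 lies below NTC.

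Among the 47 genes, the deviation of the first knockdown replicates from their group mates ran with gene length. shB replicate 1 was below both other shB libraries in 31 of the 47 genes, or 66.0%, while 45.2% of all tested genes were below both, and the median deviation was -0.26 on the log2 scale for the 47 genes and -0.02 for all tested genes. The deviation was -0.89 at the median of the 7 genes with up to 1500 bases of exon and -0.12 at the median of the other 40. shA replicate 1 was above both other shA libraries in 29 genes, or 61.7%, against 40.4% of all tested genes, with medians of 0.52 for the 7 short genes and 0.13 for the rest. Across the 47 genes, which share 1 library, Pearson's r between the deviation and log2 exon length was 0.55 for shB replicate 1 and -0.49 for shA replicate 1. The short genes include Atp6v0b, Atp6v0c, Atp6v1e1, Atp6v1f, Atp6v1g1, Ctsz and Cd63, so 5 of the 7 belong to the pump. The part of this deviation in the number of pump genes that passed was not tested. Of the 6 pump genes that passed as higher without the first replicates but not with all libraries, Atp6v0b and Atp6v1g1 are short and the other 4 are longer than 1500 bases.

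**Figure D5:**
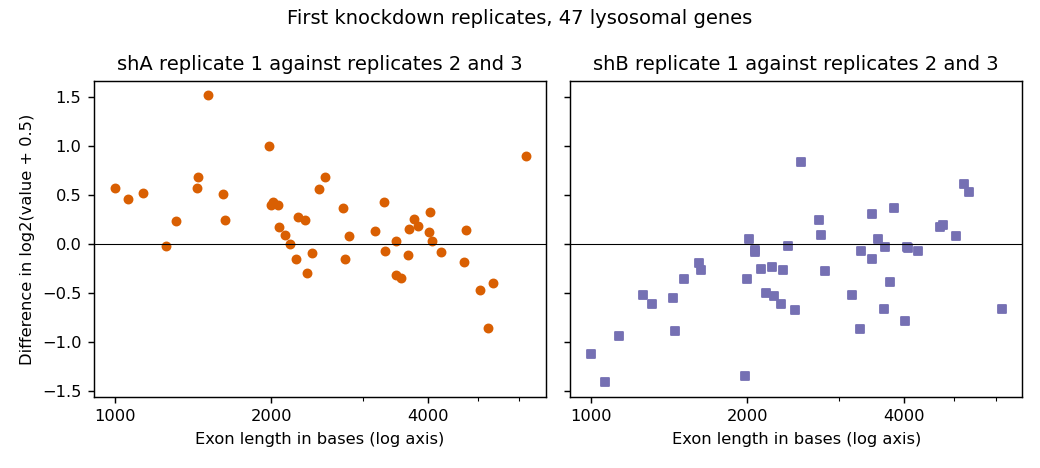
Deviation of the first shA library (left) and the first shB library (right) from the mean of the other 2 libraries of its group, on the log2(value + 0.5) scale, against exon length in bases on a log axis, for the 47 genes. Short genes lie mostly above 0 in shA replicate 1 and below 0 in shB replicate 1.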

How the data were processed

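Total RNA of 9 MC38 tumours (3 shA, 3 shB, 3 NTC libraries) was sequenced on an Illumina NovaSeq after a NEBNext Ultra RNA library preparation, per the labels' protocols. The deposited values are a normalized signal, the reads of a gene scaled by a factor of its library. No header states this, and it was inferred from the numbers: within a tolerance of 0.001, 100% of values were whole multiples of a step specific to each library, and the steps matched median-of-ratios size factors. Dividing by the step returned the reads, which give the depth. The submitters' processing notes name Cuffdiff 2.2.1 and mm9 without a role. Aligner, counter, strand use and gene models are not stated in the labels or headers, so overlapping and antisense genes are uncertain.

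Because the unit is a normalized one, the test was limma 3.58.1 (R 4.3.3) with trended empirical Bayes variances, on log2(value + 0.5). A gene needed at least 20 normalized reads in at least 3 libraries. A single fit of the 3 groups used all 9 libraries, and p-values were adjusted by Benjamini-Hochberg over 14600 genes. Fold changes are differences of mean log2(value + 0.5), so those of low genes depend on the number added and on libraries near 0. Alternatives were DESeq2 1.42.0 and edgeR 4.0.16 on those reads, other pseudocounts, filters, scalings and weights, a replicate block and each library left out. For both shRNAs against NTC, 2258 of all tested genes rose and 1386 fell in limma, 2223 and 1276 in edgeR, and 2678 and 1796 in DESeq2. The 47 genes, the other gene lists, the paralogue pairs and the tests were chosen with earlier results of these data known, so no test was made of a list as a whole. Values of every library are given for Gad1 and, in each role group, for the 3 genes with the largest and the 1 with the smallest log2 change, and for the 6 genes with the smallest p between shA and shB; Ctsl and Lamp1 were added after their values were seen. Exon lengths (union of exons, GENCODE M21 on GRCm38) served for levels per kilobase and for length trends. Promoters are RefSeq GRCm38.p6, matched by symbol.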

Additional observations from a re-analysis of the deposited data

How the results depend on the processing

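Of the 18 lysosomal genes that rose with both shRNAs averaged, 15 kept their call under all 22 alternatives; Atp6v1d, Ctsa and Ctsk lost theirs in fits that left out an NTC library. Of the 29 that did not pass, 19 passed in at least 1 alternative. With library weights 30 genes rose and 4 fell, against 27.2% and 26.5% of all tested genes. The fit that left out all 3 first replicates gave 33 rising and 3 falling genes, against 23.7% and 20.5%. For shA alone library weights gave 27 rising and 3 falling, against 2642 and 2267 of all 14600 tested genes. The fit without first replicates gave 27 and 3 for shA, against 2272 and 1620 of 14155. For shB alone library weights gave 29 and 5, against 4028 and 3913 of 14600. The fit without first replicates gave 31 and 1 for shB, against 3436 and 2987 of 14155. DESeq2 gave 1 falling gene for both shRNAs and 2 for shA, against 1796 and 1339 of all 14600 tested genes. Leaving out 1 library at a time gave 15 to 24 rising and 0 to 2 falling genes for both shRNAs, 14 to 21 and 0 to 2 for shA, and 12 to 21 rising for shB. Over all tested genes these fits gave 1483 to 2980 rising and 519 to 2501 falling for both shRNAs. They gave 1037 to 2253 and 228 to 1734 for shA, and 1315 to 2394 rising for shB. The labels do not say whether the replicate numbers pair the libraries. Deviations of same-numbered libraries correlated at -0.34 to 0.06 and those of differently numbered ones at -0.24 to 0.39. With groups of 3 libraries this check cannot decide the question. A fit with the replicate block gave 18 rising genes for both shRNAs, 16 for shA and 14 for shB, with 0 falling. Of all 14600 tested genes, 2001, 1370 and 1666 then rose and 920, 408 and 710 fell. The median log2 change of the 47 genes ranged from 0.24 to 0.38 and the log2 change of Gad1 from -3.68 to -3.07. Genes near 0 changed sign without passing: Atp6v1f gave 0.11 with library weights, 0.0341 with edgeR, 0.0255 with DESeq2 and 0.12 without first replicates, and Asah1 0.00501 with upper quartile scaling. With 1 library left out the log2 change ran from -0.0409 to 0.26 for Atp6v0b, -0.0333 to 0.12 for Atp6v1e1, -0.19 to 0.18 for Atp6v1f, -0.054 to 0.0856 for Atp6v1h, -0.24 to 0.37 for Ctsf, -0.12 to 0.0282 for Glb1, -0.015 to 0.25 for Neu1 and -0.0815 to 0.0609 for Asah1. The cause was not tested. Groups of 3 libraries limit the precision; every one of the 47 genes had at least 33 reads in each library.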

Other observations

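Further genes of the lysosome were counted in the same comparison of both shRNAs with NTC, in which 15.5% of all tested genes rose and 9.49% fell. Of 35 further genes of lysosomal enzymes and cofactors, most of them hydrolases, 13 rose and 0 fell, with a median log2 change of 0.29. Ctss (cathepsin S), the protease that trims the invariant chain in antigen-presenting cells, averaged 13552 ± 2407 normalized reads in shA tumours, 8623 ± 1426 in shB tumours and 969 ± 455 in NTC tumours (SD, n = 3 each), a 12.2-fold difference with a limma adjusted p of 0.000224. Gm2a, the GM2 activator protein, rose 4.04-fold, Acp5, tartrate-resistant acid phosphatase, 4.27-fold, and Galns, a sulfatase, 2.11-fold, with limma adjusted p of 0.00021, 0.000272 and 0.000533. Of 26 tested lysosomal membrane genes 10 rose and 1 fell, but 3 rose without NTC replicate 1 or without NTC replicate 2, and 5 without NTC replicate 3. Cd68, a macrophage sialomucin, rose 3.02-fold and Laptm5, a leukocyte membrane protein, 6.36-fold, or 4.01-fold without the first replicate of each group (limma adjusted p = 0.0005, 0.000684 and 1.66e-05). Slc11a1, a metal transporter of phagosomes, rose 4.74-fold, and 3.06-fold without NTC replicate 1 (limma adjusted p = 0.00672 and 0.0195). Laptm4b fell, at 983 ± 116 in shA tumours, 517 ± 176 in shB tumours and 1946 ± 178 in NTC tumours (SD, n = 3 each; limma adjusted p = 0.000784). Of 5 tested protease inhibitor genes of the cystatin and serpin families 4 rose, the serpins Serpinb9 and Serpinb6b and the cystatins Cst7 and Cst3. Whether the serpins act on cathepsins was not examined. Cst3 (cystatin C) averaged 5155 ± 1236 with shA, 4503 ± 1374 with shB and 1946 ± 228 in NTC tumours (SD, n = 3 each, limma adjusted p = 0.00212). The part of the macrophage markers, which rose in the same comparison, was not tested.

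Genes that sort enzymes to the lysosome or signal from it gave few calls with all libraries in the fit. More passed in some other fits. Of 6 tested further pump isoforms 0 rose and 1 fell, Atp6v0a4, the kidney a4 form, at 144 ± 40.1 with shA, 76.3 ± 35.8 with shB and 252 ± 126 in NTC tumours (SD, n = 3 each; limma adjusted p = 0.0336). Its call was lost without NTC replicate 1 or 3 or without any 1 of shA replicates 2 and 3 and shB replicates 2 and 3, with limma adjusted p up to 0.168. Of 20 genes of sorting to lysosomes 1 fell, Gga2, an adaptor for mannose 6-phosphate receptors, by 0.65 on the log2 scale (limma adjusted p = 0.00324). Without shB replicate 1, 5 sorting genes fell and 1 rose. Leaving out all 3 first replicates gave 4 lower and 1 higher, and library weights gave 8 lower and 2 higher. Of 19 genes of mTORC1 and its regulators on lysosomes 0 rose and 3 fell, namely Mlst8, Rptor and Nprl3, with log2 changes of -0.65, -0.51 and -0.35 (limma adjusted p = 0.024, 0.0428 and 0.0459). None fell without any 1 of the NTC replicates or without shB replicate 2, and 1 fell without shA replicate 1 or 3 or shB replicate 3. Without shB replicate 1, 6 mTORC1 genes fell and 2 rose. Leaving out all 3 first replicates gave 6 lower and 3 higher, and library weights gave 7 lower and 2 higher. Of 22 autophagy genes 1 rose, Pik3c3, a lipid kinase, by 0.61 (limma adjusted p = 0.0209). That call was lost without any 1 of the NTC replicates (limma adjusted p = 0.0613 to 0.086). Without shB replicate 1, 3 autophagy genes rose and 2 fell. Leaving out all 3 first replicates gave 7 higher and 1 lower, with a median log2 change of 0.21. Library weights gave 8 higher and 2 lower. Over all tested genes, 20.6% rose and 17.3% fell without shB replicate 1. These shares were 23.7% and 20.5% with the 3 first replicates left out, and 27.2% and 26.5% with library weights. With shA alone 0 autophagy genes rose and 2 fell, against 11.4% and 5.59% of all tested genes. The 2 were Atg9a, a lipid scramblase, and Ulk1, the initiating kinase. Their log2 changes were -1.003 and -0.62 (limma adjusted p = 0.0458 and 0.0462). Over the alternatives 0 to 5 rose and 0 to 3 fell with shA, against 1037 to 2642 and 228 to 2267 of all tested genes. Of Tfeb and its 3 relatives Tfec rose, at 84.6 ± 29.5 with shA, 53.3 ± 4.57 with shB and 3.66 ± 2.45 in NTC tumours (SD, n = 3 each; limma adjusted p = 0.000556). Its fold of 18.5 rests on NTC values of a few reads, and it was 8.43 with a pseudocount of 5.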
